A study of Homo sapiens with 12 samples.

Results

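The transcripts of 36 aminoacyl-tRNA synthetase genes were followed in JEKO-1 cells, a human mantle cell lymphoma line, by polyadenylated RNA sequencing. The members were taken by name from the deposited gene counts, 36 of 64253 genes, and comprised 20 genes for cytosolic enzymes and 16 nuclear genes for mitochondrial enzymes, whose names end in 2. Where a name had several rows, the identifier on a primary chromosome with most reads was used. The cells had been cultured for 48 h with DMSO (the vehicle control), with choline salicylate (CS, a salicylate that lacks the acetyl group of aspirin), with KPT-330 (selinexor, which blocks XPO1, the exportin that carries proteins and RNAs out of the nucleus), or with both drugs (KPT-330+CS). Each of the 4 groups had 3 libraries. All groups were this 1 line, the labels give drug concentrations only as ranges for the whole study, and they do not say whether replicates came from separate cultures. The p-values then describe the spread among these libraries, which may be technical. Each treatment was compared with DMSO, the combination with each single drug, and the single drugs with each other.

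Aminoacyl-tRNA synthetases attach each amino acid to its tRNA, the step at which the genetic code is read. Class I and class II enzymes differ in the fold of the catalytic domain, and several cytosolic enzymes are held with the scaffold proteins AIMP1, AIMP2 and EEF1E1 in the multisynthetase complex. When amino acids run short or the endoplasmic reticulum is stressed, the kinases of the integrated stress response raise translation of the transcription factor ATF4, which binds C/EBP-ATF response elements upstream of many cytosolic synthetase genes and of genes for amino acid synthesis and uptake.

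Because such elements are the known link between these promoters and ATF4, the RefSeq promoter windows (GRCh38.p14, 250 bases before to 50 bases after each start site) were searched on both strands for TGATGNAA, which reads TTNCATCA on the other strand. A window was matched for 30 of the 36 genes, and 8 of them (26.7%) held the motif in at least 1 window, against 4.46% of all 27305 genes in the table. Over windows, 3.62% of all 35116 held it. Of the 8 genes, 7 were among the 16 cytosolic genes with a window and 1 was among the 14 mitochondrial genes with one. DARS, LARS, VARS, YARS, AARS2 and VARS2 had no matched window. The 30 bases around each match are printed 5′ to 3′ on the strand of the gene, with the motif in capitals, since this group of genes recurs in the comparisons.
AARS, chr16:70289675-70289704, minus strand: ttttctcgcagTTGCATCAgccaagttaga
CARS, chr11:3057407-3057436, minus strand: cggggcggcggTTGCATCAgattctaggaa
GARS, chr7:30594834-30594863, plus strand: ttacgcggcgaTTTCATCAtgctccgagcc
IARS, chr9:92293692-92293721, minus strand: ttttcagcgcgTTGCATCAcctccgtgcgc
MARS, chr12:57488053-57488082, plus strand: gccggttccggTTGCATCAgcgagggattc
NARS, chr18:57621804-57621833, minus strand: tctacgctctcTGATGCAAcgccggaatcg
TARS, chr5:33440956-33440985, plus strand: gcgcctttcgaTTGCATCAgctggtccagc
YARS2, chr12:32756076-32756105, minus strand: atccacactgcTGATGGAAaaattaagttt
In CARS, IARS, MARS and TARS the first motif base lay at -2, -13, -4 and 2 from the RefSeq start, and in GARS and NARS at -33 and 14. In AARS and YARS2 it lay further upstream, at -187 and -197. The cytosolic matches other than that of GARS shared the core TTGCATCA or its reverse complement TGATGCAA. A match describes these letters and is not evidence of binding.

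The libraries held 35325563 to 59490178 counts, and 19460 genes passed the filter on low counts. All 36 members passed it, and the member with the fewest reads in any library had 164. Levels between genes were compared as RPKM (reads per kilobase of the deposited gene length, scaled to library size), and levels of one gene between libraries as CPM (counts scaled to library size, with TMM). Of the markers of mantle cell lymphoma and B cells, CCND1 lay at 302 to 585 CPM over the 12 libraries, SOX11 at 79.5 to 96.6 CPM and PAX5 at 233 to 373 CPM. Summed over their lists, T cell markers lay at 11.5 to 12.7 CPM in DMSO, 8.21 to 9.53 in CS, 19.7 to 21.7 in KPT-330 and 4.80 to 6.17 in KPT-330+CS. Epithelial and stromal markers lay at 0.734 to 1.03 CPM in DMSO, 0.893 to 0.971 in CS, 2.76 to 3.66 in KPT-330 and 1.79 to 2.40 in KPT-330+CS. Myeloid markers reached at most 4.15 CPM, with 1 of 6 at 0 in all libraries, and erythroid markers 0.0603 CPM, with 2 of 5 at 0. In DMSO the T cell markers CD3D, CD3E, CD3G, CD2, CD8A and CD4 each had a mean of 0.323 CPM or less, so TRAC made up most of that sum. By edgeR's test, 3 of the 5 tested T cell markers were higher and 1 lower in KPT-330+CS than in DMSO. Of all tested genes 29.3% were higher and 26.2% lower. The lower T cell sum in KPT-330+CS thus does not describe the list. The part of these markers in the results below was not tested. For each library, the deviation of log2 CPM from the gene's mean over all 12 libraries was set against GC content. Its slope per 10 points, which is relative to the average library, differed between libraries. It ran from -0.314 to 0.0874 in DMSO, from -0.229 to 0.0592 in CS, from 0.195 to 0.228 in KPT-330 and from -0.150 to 0.128 in KPT-330+CS. In bulk RNA, fewer cells of a type and less RNA per cell cannot be told apart.

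In DMSO the cytosolic genes were the more abundant class. Their mean levels ran from 7.08 RPKM for CARS to 133 RPKM for KARS, with a median of 56.6 RPKM, and those of the mitochondrial genes from 1.95 RPKM for PARS2 to 40.4 RPKM for IARS2, with a median of 9.47 RPKM. KARS (lysine) and NARS (asparagine) headed the order, at 133 ± 3.82 and 105 ± 7.87 RPKM (mean ± SD, n = 3), and their ranges did not overlap. Below them, IARS (isoleucine) at 80.3 ± 7.94, FARSB (the beta subunit of the phenylalanine enzyme) at 76.4 ± 7.01 and GARS (glycine) at 74.8 ± 5.92 RPKM were within 1 SD of each other. MARS (methionine) followed at 67.8 RPKM, and AARS (alanine), DARS (aspartate), LARS (leucine) and EPRS (glutamate and proline) lay between 60.6 and 62.3 RPKM. IARS2 was the single mitochondrial gene above 20 RPKM, and ranked 15 of 36. NARS2, TARS2, MARS2, RARS2 and EARS2 lay between 13.2 and 19.9 RPKM, while CARS2, WARS2, FARS2, SARS2 and PARS2 were all below 5 RPKM. This order depends on the deposited gene length, which need not be the length of the transcript expressed. CARS (71.1 CPM, 10037 bases) ranked 29, and FARSA, with a lower mean CPM but a shorter length (66.4 CPM, 2435 bases), ranked 16. KARS and GARS each give both the cytosolic and the mitochondrial enzyme, so counts per gene cannot separate these products.

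Summed over the 20 cytosolic genes, the level was 5294, 5505 and 5539 CPM in DMSO, 5526, 5576 and 5487 CPM in CS, 4406, 4361 and 4404 CPM in KPT-330, and 4307, 4451 and 4509 CPM in KPT-330+CS. Every library with KPT-330 lay below every library without it, and CS overlapped DMSO. Summed over the 16 mitochondrial genes, the level was 747, 734 and 728 CPM in DMSO, 697, 713 and 715 CPM in CS, 704, 699.7 and 715 CPM in KPT-330, and 687, 675 and 659 CPM in KPT-330+CS. All treated libraries lay below DMSO here, and CS and KPT-330 overlapped each other. With library size alone as scaling, the cytosolic sums kept KPT-330 (4548 to 4590 CPM) and KPT-330+CS (4631 to 4729 CPM) below DMSO (5053 to 5101 CPM) and put CS above it (5355 to 5420 CPM). The mitochondrial sums then turned: KPT-330 (730 to 745 CPM) lay above DMSO (664 to 714 CPM), and CS (675 to 700 CPM) and KPT-330+CS (686 to 739 CPM) overlapped DMSO. These sums are given as a description, with no test.

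**Figure D1:**
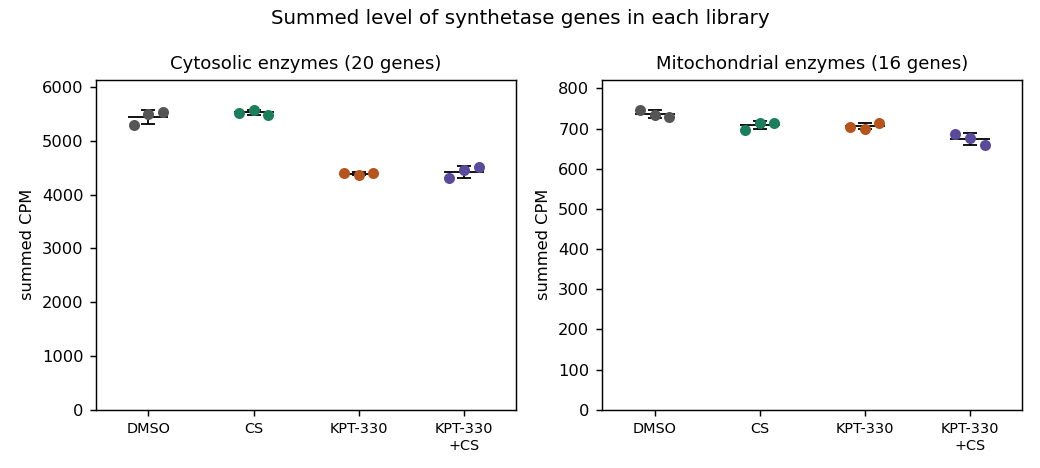
Summed CPM (TMM-scaled, axis from 0) of the cytosolic genes (left) and the mitochondrial genes (right); points are libraries, and the horizontal line with bars is the mean ± SD of 3. The cytosolic sum was 4307 to 4509 CPM in the 6 libraries with KPT-330 and 5294 to 5576 CPM in the 6 without it.

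KPT-330 alone lowered most cytosolic synthetase transcripts. At an adjusted p of 0.05 or less (edgeR's quasi-likelihood test over all 19460 genes, Benjamini-Hochberg), 14 of the 20 cytosolic genes fell and 0 rose, while 23.8% of all tested genes were called lower and 24.7% higher. Of the 16 mitochondrial genes, 4 fell and 2 rose. The median log2 fold change was -0.35 over cytosolic genes, -0.03 over mitochondrial genes and 0.04 over all tested genes. The libraries of KPT-330 and DMSO did not overlap for 15 cytosolic and 7 mitochondrial genes, against 57.7% of all tested genes. No member passed the study's further limit of 2 on the absolute log2 fold change in any comparison. The share of all genes past it was 3.02% in KPT-330, 0.144% in CS and 4.36% in KPT-330+CS against DMSO, 0.853% in KPT-330+CS against KPT-330, 3.00% in KPT-330+CS against CS, 2.67% in CS against KPT-330 and 0.761% in the interaction.

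MARS, the methionine enzyme, was measured at 531, 480.3 and 418 CPM in DMSO, 508, 558 and 596 CPM in CS, 289, 276 and 288 CPM in KPT-330, and 299, 303 and 271 CPM in KPT-330+CS. Both groups with KPT-330 lay below both groups without it. Against DMSO, KPT-330 changed MARS by -0.75 ± 0.08 on the log2 scale (± SE, adjusted p = 1.08e-05), the largest change among the members in this comparison. MARS shares 355 exon bases (5.05% of its own) with DDIT3 and 519 with ARHGAP9, both on the opposite strand, and the kit does not mark strand, so reads from the shared bases cannot be told apart. The same holds for opposite-strand overlaps of other members, among them YARS (4.05%, S100PBP), KARS (4.35%, TERF2IP), CARS2 (3.20%, ING1) and WARS2 (4.39%, WARS2-AS1). DDIT3, the stress factor CHOP, rose by 1.48 ± 0.06 while MARS fell.

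GARS, the glycine enzyme, stood at 285, 313 and 334 CPM in DMSO, 347, 341 and 314 CPM in CS, 197, 199.6 and 199 CPM in KPT-330, and 208, 222 and 236 CPM in KPT-330+CS. Again the libraries with KPT-330 were all lower than the others. Its change in KPT-330 was -0.65 ± 0.07 (adjusted p = 4.99e-06). CARS, the cysteine enzyme, was measured at 77.0, 71.0 and 65.1 CPM in DMSO, 93.2, 98.6 and 104 CPM in CS, 49.0, 49.3 and 46.6 CPM in KPT-330, and 65.0, 64.6 and 59.8 CPM in KPT-330+CS. The order was CS, DMSO, KPT-330+CS and then KPT-330, with no overlap between any pair of groups. The fold change of CARS in KPT-330 was -0.56 ± 0.07 (adjusted p = 2.12e-05).

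FARSB had levels of 232, 262 and 278 CPM in DMSO, 225, 213 and 200.4 CPM in CS, 185, 187 and 183 CPM in KPT-330, and 133, 140.0 and 156 CPM in KPT-330+CS. The order was DMSO, CS, KPT-330 and then KPT-330+CS, with no overlap between any pair of groups. Its change in KPT-330 was -0.48 ± 0.07 (adjusted p = 0.000168). FARSA, the alpha subunit of the same enzyme, was measured at 96.5, 60.9 and 41.9 CPM in DMSO, 44.4, 59.7 and 83.3 CPM in CS, 93.9, 95.7 and 101 CPM in KPT-330, and 68.7, 54.5 and 34.4 CPM in KPT-330+CS. DMSO spanned a 2.30-fold range, and 1 KPT-330 library lay above its highest library and the others just below it. No change in KPT-330 passed the test for FARSA (0.54 ± 0.29, adjusted p = 0.138), although without DMSO replicate 1 it was called higher (0.91).

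YARS, the tyrosine enzyme, stood at 177, 184 and 174 CPM in DMSO, 209, 212 and 207 CPM in CS, 134, 126 and 132 CPM in KPT-330, and 137, 140.4 and 140.4 CPM in KPT-330+CS. CS lay above DMSO, and KPT-330+CS and then KPT-330 lay below it, with no overlap. Its change in KPT-330 was -0.45 ± 0.05 (adjusted p = 4.2e-06). WARS (tryptophan) at -0.42 ± 0.05, RARS (arginine) at -0.42 ± 0.09, TARS (threonine) at -0.42 ± 0.06, KARS at -0.42 ± 0.05 and NARS at -0.41 ± 0.06 fell by similar amounts. IARS (-0.27 ± 0.07), EPRS (-0.24 ± 0.07), LARS (-0.20 ± 0.07) and DARS (-0.20 ± 0.07) fell less.

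The other 6 cytosolic genes did not pass the test in KPT-330. AARS, the alanine enzyme, was measured at 293, 286 and 260.2 CPM in DMSO, 364, 385 and 398 CPM in CS, 304, 287 and 292 CPM in KPT-330, and 326, 328 and 309 CPM in KPT-330+CS. The CS libraries were the highest, those of KPT-330+CS were above DMSO, and KPT-330 overlapped DMSO. AARS differed between KPT-330 and DMSO by 0.07 ± 0.06 (adjusted p = 0.321), an interval of 2 SE from -0.04 to 0.19. SARS (serine) at -0.04 ± 0.06, QARS (glutamine) at 0.06 ± 0.10 and HARS (histidine) at -0.11 ± 0.05 were near 0, and the value of VARS (valine) was -0.29 ± 0.16, with a larger error.

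Among mitochondrial genes, PARS2, the proline enzyme, was the lowest expressed member, at 5.73, 4.01 and 3.98 CPM in DMSO, 4.16, 4.51 and 4.71 CPM in CS, 7.35, 6.63 and 6.25 CPM in KPT-330, and 7.10, 6.69 and 5.62 CPM in KPT-330+CS. All libraries with KPT-330 except KPT-330+CS replicate 3 lay above the highest DMSO library. It rose in KPT-330 (0.56 ± 0.15, adjusted p = 0.00704). TARS2 also rose (0.27 ± 0.10, adjusted p = 0.0398). YARS2, the mitochondrial gene with a motif match, was measured at 19.6, 21.2 and 19.3 CPM in DMSO, 18.5, 16.8 and 16.6 CPM in CS, 15.1, 15.4 and 15.0 CPM in KPT-330, and 14.6, 15.3 and 16.1 CPM in KPT-330+CS. The groups with KPT-330 lay below the others without overlap. Its change in KPT-330 was -0.40 ± 0.07 (adjusted p = 0.000621).

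EARS2, the glutamate enzyme of mitochondria, stood at 75.8, 73.0 and 78.4 CPM in DMSO, 74.6, 72.9 and 76.3 CPM in CS, 59.1, 57.9 and 59.7 CPM in KPT-330, and 53.0, 50.5 and 52.7 CPM in KPT-330+CS. KPT-330 libraries lay below DMSO and CS, and KPT-330+CS lay lower still. EARS2 changed by -0.36 ± 0.05 in KPT-330 (adjusted p = 5.04e-05). EARS2 shares 203 exon bases (2.90% of its own) with GGA2 on the same strand. GGA2 had 298735 reads over all libraries against 38079 for EARS2, and how reads from the shared bases were divided is uncertain. IARS2 was measured at 150.5, 169.9 and 184 CPM in DMSO, 160.1, 154 and 133 CPM in CS, 133, 133 and 132 CPM in KPT-330, and 137, 145 and 154 CPM in KPT-330+CS. The KPT-330 libraries lay below all DMSO libraries, while the other treated groups overlapped DMSO. Its change was -0.34 ± 0.08, and that of MARS2 was -0.32 ± 0.06. The other 10 mitochondrial genes lay between -0.19 ± 0.11 for FARS2 and 0.48 ± 0.23 for SARS2 and did not pass the test.

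In this comparison 15 of the 20 called members kept their call under all 18 alternatives. LARS lost its call without DMSO replicate 2 or 3 or any single KPT-330 library (-0.21 to -0.11), DARS without DMSO replicate 2 or 3 or KPT-330 replicate 1 or 3 (-0.20 to -0.13), EPRS without DMSO replicate 3 (-0.17), and TARS2 without DMSO replicate 2 or 3 or any single KPT-330 library (0.21 to 0.30). Without DMSO replicate 1, FARSA (0.91), SARS2 (0.82) and VARS2 (0.46) were called higher, and without DMSO replicate 3 FARS2 (-0.27) was called lower and NARS2 (0.20) higher. Scaling by library size alone moved the median of all genes from 0.04 to 0.20, put the split of all calls at 69.6% higher in place of 51.0%, left 10 cytosolic genes lower (IARS lost its call too, at -0.11) and 1 higher, kept the cytosolic median negative (-0.19) and turned the mitochondrial one positive (0.13).

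The median of the cytosolic genes minus that of the mitochondrial genes was -0.32 in KPT-330. With counts corrected for the GC trend of each library it was -0.18, with 16 cytosolic genes lower and 0 higher and 8 mitochondrial genes lower and 2 higher. Under that correction VARS, which has the highest GC content among cytosolic members (61.7%), was called lower at -0.83, and QARS, AARS2 and VARS2 turned from 0.06, 0.16 and 0.31 to -0.14, -0.17 and -0.16. Across the 36 members, GC content and the uncorrected change in KPT-330 had a Spearman correlation of 0.44, with all points from the same libraries. The part of GC-dependent recovery in the class difference was otherwise not tested.

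**Figure D2:**
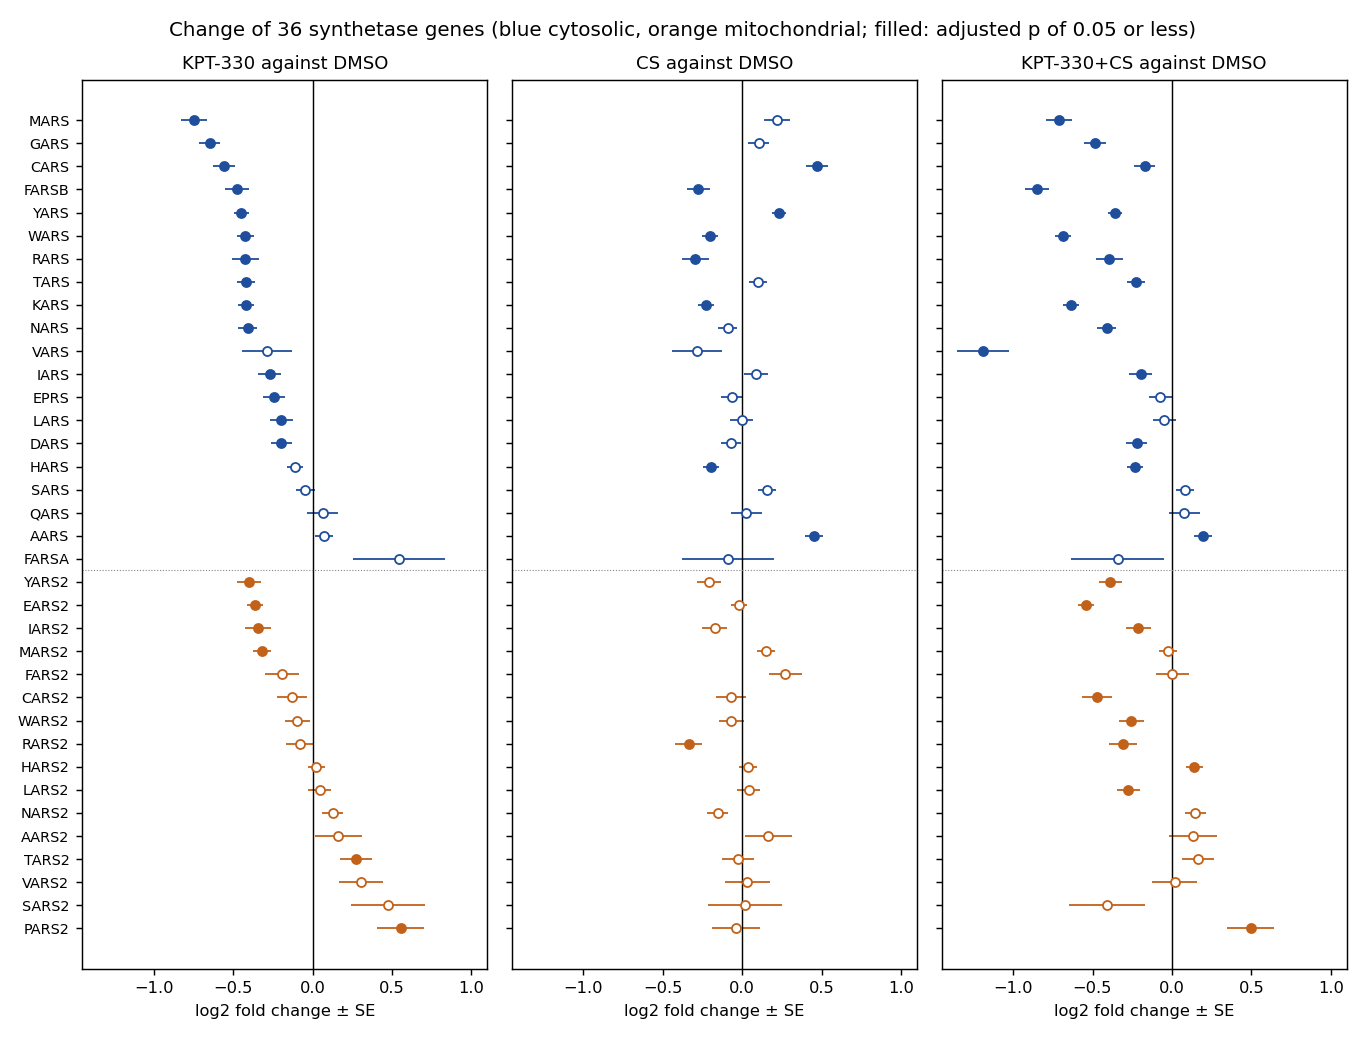
Log2 fold change ± SE of each member against DMSO in KPT-330 (left), CS (middle) and KPT-330+CS (right), from the fit of all 12 libraries; genes are ordered within each class by the left panel, and filled points passed an adjusted p of 0.05. Cytosolic genes lie mostly left of 0 in the outer panels, AARS and CARS lie at 0.45 and 0.47 in the middle panel, and VARS is farthest left, at -1.19, in the right panel. The panels share the DMSO libraries.

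CS alone raised 3 cytosolic genes, AARS, CARS and YARS, and lowered 5, RARS, FARSB, KARS, WARS and HARS. Of all tested genes 3.76% were called higher and 5.13% lower. Among mitochondrial genes 0 were called higher and RARS2 was called lower. CS and DMSO did not overlap for 7 cytosolic and 4 mitochondrial genes, against 22.7% of all tested genes. The medians were -0.03 over cytosolic and -0.02 over mitochondrial genes, against -0.01 over all genes, and both class medians turned to slightly positive values (0.03 and 0.04) when counts were scaled by library size alone, which put the split of all calls at 65.7% higher in place of 42.3%. The class difference was -0.01.

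CARS and AARS, whose library values are given above, lay higher in every CS library than in any DMSO library. CARS rose by 0.47 ± 0.07 (adjusted p = 0.000983) and AARS by 0.45 ± 0.06 (adjusted p = 0.000488). These were the only members whose call in CS held under all 18 alternatives. YARS rose by 0.23 ± 0.05 (adjusted p = 0.00736), and its call was lost with the DMSO and CS libraries fitted alone (0.26, adjusted p = 0.0611). MARS (0.22 ± 0.08), SARS (0.16 ± 0.06), GARS (0.11 ± 0.07) and TARS (0.10 ± 0.06) had positive values that did not pass the test. Without DMSO replicate 1, MARS (0.30) and SARS (0.20) were called higher and IARS2 (-0.25) lower.

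RARS, the arginine enzyme, was measured at 156, 183 and 200.01 CPM in DMSO, 159.9, 145 and 135 CPM in CS, 132, 137 and 133 CPM in KPT-330, and 128, 136 and 146 CPM in KPT-330+CS. DMSO replicate 1 lay below CS replicate 1, and the other DMSO libraries lay above all of CS. It was called lower in CS (-0.30 ± 0.09, adjusted p = 0.0491). KARS, the lysine enzyme, stood at 526, 543 and 557 CPM in DMSO, 478, 464 and 447 CPM in CS, 414, 400.0 and 405 CPM in KPT-330, and 332, 352 and 364 CPM in KPT-330+CS. The groups were ordered DMSO, CS, KPT-330 and KPT-330+CS without overlap. Its change in CS was -0.23 ± 0.05 (adjusted p = 0.0148). FARSB fell likewise (-0.28 ± 0.07), as did WARS (-0.20 ± 0.05) and HARS (-0.20 ± 0.05). RARS2, the mitochondrial arginine enzyme, was measured at 35.8, 37.9 and 45.3 CPM in DMSO, 33.5, 31.3 and 29.3 CPM in CS, 37.1, 38.0 and 37.6 CPM in KPT-330, and 30.5, 31.0 and 34.5 CPM in KPT-330+CS. All CS libraries lay below DMSO. It changed by -0.34 ± 0.09 (adjusted p = 0.0295).

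None of the 6 falls in CS held when only DMSO and CS libraries were fitted, which left 2 members called, AARS and CARS, and 249 genes in all in place of 1729. Single libraries also ended these calls. Without DMSO replicate 2 or any single CS library HARS lay at -0.21 to -0.17 and WARS at -0.21 to -0.18. Without DMSO replicate 2 or 3 or CS replicate 2 or 3 FARSB lay at -0.28 to -0.19, RARS at -0.29 to -0.19 and RARS2 at -0.37 to -0.21, and without DMSO replicate 2 or CS replicate 2 or 3 KARS lay at -0.23 to -0.18.

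**Figure D3:**
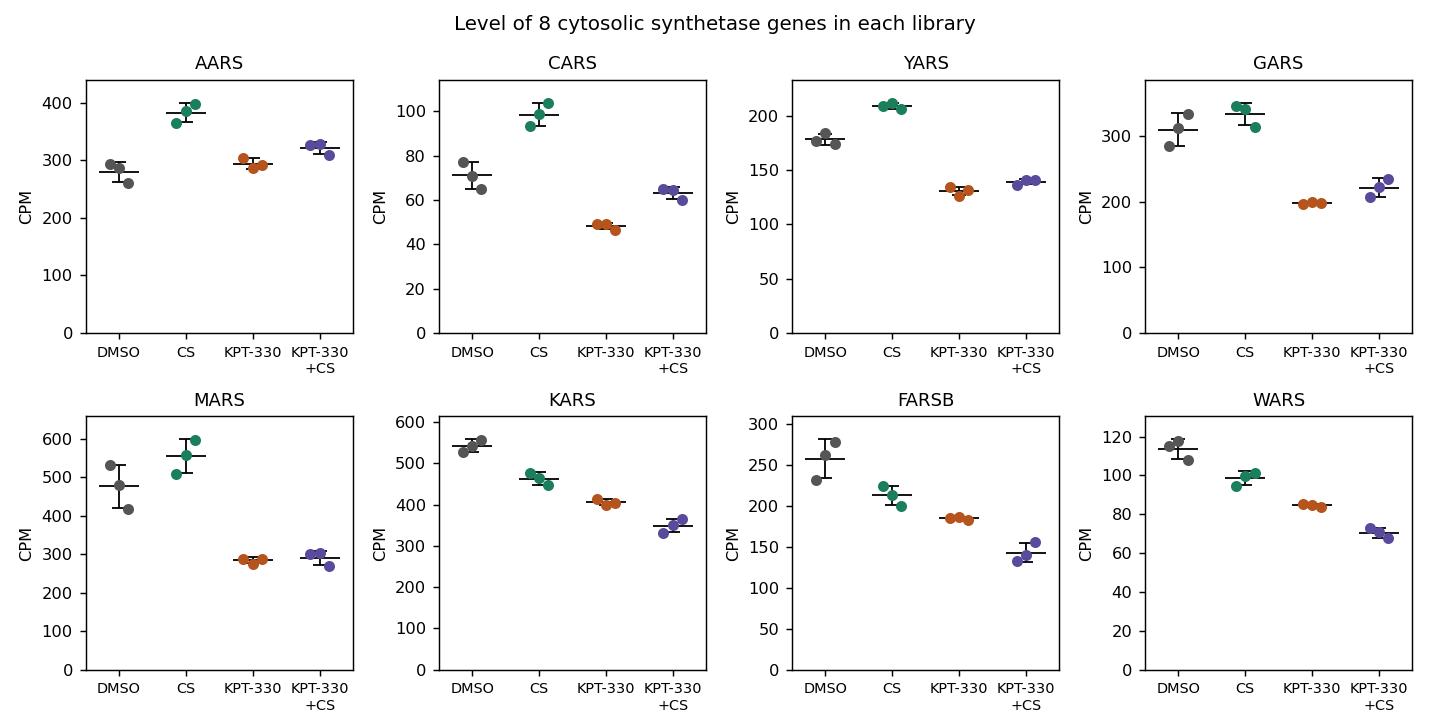
CPM (axis from 0) of 8 cytosolic genes in each library, with mean ± SD of 3 per group. In the upper row AARS, CARS and YARS are highest in CS; in the lower row KARS, FARSB and WARS step down from DMSO through CS and KPT-330 to KPT-330+CS, and MARS is at 271 to 303 CPM in the 6 libraries with KPT-330 against 418 to 596 CPM in the others.

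In KPT-330+CS, 14 cytosolic genes fell and 1, AARS, rose against DMSO. The shares of all tested genes were 26.2% lower and 29.3% higher. Among the mitochondrial genes 7 fell and 2 rose. The groups did not overlap for 14 cytosolic and 7 mitochondrial genes, against 56.7% of all tested genes. The medians were -0.29 over cytosolic, -0.12 over mitochondrial and 0.04 over all genes, and the class difference was -0.17. With library size alone as scaling the median of all genes was 0.23 and 69.3% of all calls were higher in place of 52.9%, the cytosolic median remained negative (-0.10), the mitochondrial one turned to 0.07, and the members called lower went from 21 to 12.

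VARS, the valine enzyme, was measured at 117, 96.0 and 75.8 CPM in DMSO, 63.1, 78.8 and 95.1 CPM in CS, 78.6, 75.3 and 83.3 CPM in KPT-330, and 47.6, 43.1 and 36.2 CPM in KPT-330+CS. The KPT-330+CS libraries lay below all others, and the other 3 groups overlapped. Its change against DMSO was -1.19 ± 0.16 (adjusted p = 3.21e-05), the largest among the members in any comparison. FARSB changed by -0.85 ± 0.07 (adjusted p = 5.73e-07) and MARS by -0.71 ± 0.08 (adjusted p = 8.68e-06). WARS, the tryptophan enzyme that interferon-gamma is known to induce, stood at 115, 118 and 108 CPM in DMSO, 94.4, 99.8 and 101 CPM in CS, 85.2, 85.0 and 83.8 CPM in KPT-330, and 73.0, 70.7 and 67.8 CPM in KPT-330+CS. It was ordered DMSO, CS, KPT-330 and KPT-330+CS with no overlap. WARS changed by -0.69 ± 0.05 in the combination (adjusted p = 1.38e-07), and KARS, with the same order of groups, by -0.63 ± 0.05 (adjusted p = 2.48e-07).

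GARS (-0.48 ± 0.07), NARS (-0.41 ± 0.06), RARS (-0.39 ± 0.09) and YARS (-0.36 ± 0.05) also fell. Smaller falls were called for HARS (-0.23 ± 0.05), TARS (-0.23 ± 0.06), DARS (-0.22 ± 0.07), IARS (-0.20 ± 0.07) and CARS (-0.17 ± 0.07). AARS rose (0.20 ± 0.06, adjusted p = 0.0107). EPRS, the enzyme that joins glutamate and proline to their tRNAs, was measured at 296, 337 and 358 CPM in DMSO, 326, 320.0 and 303 CPM in CS, 274, 283 and 280.3 CPM in KPT-330, and 298, 305 and 338 CPM in KPT-330+CS. KPT-330 libraries were the lowest, and KPT-330+CS overlapped DMSO. Its value in the combination was -0.07 ± 0.07 (adjusted p = 0.404). FARSA, LARS, SARS and QARS did not pass the test either, at -0.34 ± 0.29 to 0.08 ± 0.06.

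EARS2 had the largest fall among mitochondrial genes in the combination (-0.54 ± 0.05, adjusted p = 7.92e-07). CARS2, the mitochondrial cysteine enzyme, was measured at 48.2, 44.6 and 38.8 CPM in DMSO, 39.5, 41.4 and 44.4 CPM in CS, 36.8, 41.0 and 42.7 CPM in KPT-330, and 34.7, 31.5 and 28.7 CPM in KPT-330+CS. KPT-330+CS lay below the other groups, which overlapped. It changed by -0.47 ± 0.09 (adjusted p = 0.000755), YARS2 by -0.39 ± 0.07, RARS2 by -0.31 ± 0.09, LARS2 by -0.28 ± 0.07, WARS2 by -0.26 ± 0.08 and IARS2 by -0.21 ± 0.08. PARS2 rose by 0.49 ± 0.15 (adjusted p = 0.0116). HARS2 is described with its neighbour below. The 7 mitochondrial genes that were not called lay between -0.41 ± 0.24 for SARS2 and 0.16 ± 0.10 for TARS2.

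HARS and HARS2, the cytosolic and mitochondrial histidine enzymes, lie head to head on chromosome 5 (140673173 to 140692024, minus strand, and 140691426 to 140699291, plus strand) and share 108 exon bases. HARS was measured at 97.2, 94.6 and 91.5 CPM in DMSO, 78.8, 83.2 and 84.8 CPM in CS, 89.0, 84.5 and 89.3 CPM in KPT-330, and 80.7, 82.5 and 77.9 CPM in KPT-330+CS. DMSO was the highest group without overlap, KPT-330 lay above KPT-330+CS, and CS overlapped both. HARS2 stood at 34.1, 35.3 and 36.1 CPM in DMSO, 37.5, 36.1 and 34.7 CPM in CS, 34.5, 36.6 and 36.3 CPM in KPT-330, and 39.4, 38.2 and 39.0 CPM in KPT-330+CS. KPT-330+CS lay above the other groups, which overlapped. HARS changed by -0.23 ± 0.05 and HARS2 by 0.14 ± 0.06 in the combination (adjusted p = 0.0015 and 0.0444). HARS also shares 1090 exon bases with WDR55 on the opposite strand. HARS2 shares 152 exon bases (4.09% of its own) with ZMAT2 on the same strand. ZMAT2 had 76749 reads over all libraries against 21328 for HARS2, and how reads from the shared bases were divided is uncertain.

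Against DMSO, 13 of the 24 calls in KPT-330+CS held under all 18 alternatives. Calls were lost without single libraries of DMSO or KPT-330+CS for CARS (-0.19 to -0.11, without any of these but DMSO replicate 3, and 0.01 with library size alone), HARS2 (0.12 to 0.15, without any but DMSO replicate 3), IARS and IARS2 (-0.20 to -0.10 and -0.21 to -0.12, without DMSO replicate 2 or 3 or KPT-330+CS replicate 1 or 2), WARS2 (-0.23 to -0.22, without DMSO replicate 2 or 3 or KPT-330+CS replicate 1), PARS2 (0.41 without DMSO replicate 2 and 0.42 without KPT-330+CS replicate 1), and DARS and RARS2 (-0.14 and -0.18 without DMSO replicate 3). Calls appeared for NARS2 without DMSO replicate 3 (0.23) or KPT-330+CS replicate 1 (0.19), for EPRS without DMSO replicate 1 (-0.15) and for TARS2 without KPT-330+CS replicate 3 (0.25).

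Adding CS to KPT-330 gave 12 called members, a share of the 36 that was no higher than the share called among all tested genes. Against KPT-330 alone, 5 cytosolic genes were lower and 2 higher in KPT-330+CS, and 4 mitochondrial genes were lower and 1 higher, while 17.9% of all tested genes were called lower and 19.7% higher. The groups did not overlap for 14 cytosolic and 11 mitochondrial genes, against 57.1% of all tested genes. VARS (-0.90 ± 0.16), FARSA (-0.88 ± 0.29), FARSB (-0.37 ± 0.07), WARS (-0.26 ± 0.05) and KARS (-0.22 ± 0.05) fell. CARS (0.39 ± 0.07, adjusted p = 0.000679) and TARS (0.19 ± 0.06, adjusted p = 0.019) rose. Both subunits of the phenylalanine enzyme were thus lower, although FARSA spanned 34.4 to 68.7 CPM within KPT-330+CS and lost its call in 8 of 18 alternatives.

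SARS2, the mitochondrial serine enzyme, was measured at 13.6, 8.73 and 6.45 CPM in DMSO, 7.68, 9.67 and 11.8 CPM in CS, 13.6, 13.3 and 13.2 CPM in KPT-330, and 8.65, 7.60 and 5.49 CPM in KPT-330+CS. KPT-330+CS lay below KPT-330 without overlap, and both DMSO and CS overlapped KPT-330+CS. Its change against KPT-330 was -0.89 ± 0.24 (adjusted p = 0.00984). SARS2 shares 1492 exon bases (48.2% of its own) with a same-strand transcript, CTC-360G5.8, which had 4343 reads over all libraries against 5938 for SARS2, so how its reads were divided is uncertain. LARS2, the mitochondrial leucine enzyme, stood at 55.0, 53.4 and 47.4 CPM in DMSO, 49.4, 55.9 and 54.9 CPM in CS, 53.1, 53.1 and 54.7 CPM in KPT-330, and 46.3, 42.0 and 40.5 CPM in KPT-330+CS. KPT-330+CS was the lowest group, and the other groups overlapped. LARS2 changed by -0.32 ± 0.07 against KPT-330 (adjusted p = 0.0039), CARS2 by -0.34 ± 0.09 and EARS2 by -0.18 ± 0.05. MARS2, the mitochondrial methionine enzyme, was measured at 46.7, 48.7 and 46.3 CPM in DMSO, 51.2, 54.2 and 51.6 CPM in CS, 38.5, 36.5 and 38.7 CPM in KPT-330, and 44.8, 49.0 and 45.4 CPM in KPT-330+CS. KPT-330 was the lowest group and CS the highest, and KPT-330+CS overlapped DMSO. MARS2 rose by 0.29 ± 0.06 when CS was added to KPT-330 (adjusted p = 0.00136).

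The cytosolic median was 0.03, the mitochondrial median -0.08 and that of all genes 0.00, and the class difference of 0.11 became 0.01 with counts corrected for GC trend. Under that correction the cytosolic median was -0.01, VARS lay at -0.55 in place of -0.90, and SARS2 lay at -0.56 in place of -0.89. Calls were lost without single libraries for FARSA (-0.91 to -0.65, without any KPT-330 library or KPT-330+CS replicate 2 or 3), TARS (0.16 to 0.19, without the same libraries), CARS2 (-0.30 without KPT-330 replicate 3 and -0.28 without KPT-330+CS replicate 3) and EARS2 (-0.16 without KPT-330+CS replicate 2). Calls appeared for GARS without KPT-330+CS replicate 1 (0.21) and for RARS2 without KPT-330+CS replicate 3 (-0.29).

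Adding KPT-330 to CS lowered 12 cytosolic genes and raised 0. Of all tested genes 21.7% were called lower and 26.1% higher. Among mitochondrial genes 4 fell and 2 rose. The groups did not overlap for 12 cytosolic and 9 mitochondrial genes, against 54.1% of all tested genes. MARS (-0.93 ± 0.08, adjusted p = 1.15e-06) and VARS (-0.90 ± 0.16, adjusted p = 0.00043) fell most, followed by CARS (-0.64 ± 0.07), GARS (-0.59 ± 0.07), YARS (-0.59 ± 0.05), FARSB (-0.57 ± 0.07), WARS (-0.48 ± 0.05), KARS (-0.41 ± 0.05), TARS (-0.33 ± 0.06), NARS (-0.32 ± 0.06), IARS (-0.28 ± 0.07) and AARS (-0.25 ± 0.06). EARS2 (-0.52 ± 0.05), CARS2 (-0.40 ± 0.09), LARS2 (-0.32 ± 0.07) and MARS2 (-0.17 ± 0.06) fell, and PARS2 (0.53 ± 0.15) and NARS2 (0.30 ± 0.07) rose. The 7 cytosolic genes with the printed motif were all among the 12 that fell. So were 3 of the 9 with a window and no match, and 2 of the 4 with no window. No test of these groups was made.

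Medians were -0.30 over cytosolic, -0.11 over mitochondrial and 0.04 over all genes, a class difference of -0.19. With library size alone they were -0.18, 0.02 and 0.16, so that the mitochondrial one turned positive, and 68.4% of all calls were higher in place of 54.7%. The call of MARS2 was lost without CS replicate 2 or KPT-330+CS replicate 1 or 3 (-0.16 to -0.15). Calls appeared without 1 library for DARS (-0.20 without CS replicate 3 or KPT-330+CS replicate 3), WARS2 (-0.24 without CS replicate 3 or KPT-330+CS replicate 2), FARS2 (-0.34 without CS replicate 1) and TARS2 (0.28 without KPT-330+CS replicate 3).

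CS and KPT-330, the single drugs, were also compared directly. In CS 13 of the 20 cytosolic genes were higher and 0 lower than in KPT-330, while 20.2% of all tested genes were called higher and 22.6% lower. The groups did not overlap for 16 cytosolic and 11 mitochondrial genes, against 58.9% of all tested genes. CARS stood 1.03 ± 0.07 (log2 ± SE, adjusted p = 1.36e-07) above its level in KPT-330, and MARS 0.96 ± 0.08 (adjusted p = 1.56e-06), GARS 0.75 ± 0.07 (adjusted p = 1.79e-06) and YARS 0.68 ± 0.05 (adjusted p = 1.46e-07) followed. TARS, the threonine enzyme, was measured at 266, 291 and 302 CPM in DMSO, 312, 315 and 292 CPM in CS, 213, 215 and 214 CPM in KPT-330, and 232, 248 and 253 CPM in KPT-330+CS. CS and DMSO overlapped above KPT-330+CS, and KPT-330 was the lowest group. TARS was higher in CS than in KPT-330 by 0.52 ± 0.06 (adjusted p = 1.36e-05). AARS (0.38 ± 0.06), IARS (0.36 ± 0.07), NARS (0.32 ± 0.06), WARS (0.22 ± 0.05), SARS (0.20 ± 0.06), FARSB (0.20 ± 0.07), LARS (0.19 ± 0.07) and KARS (0.19 ± 0.05) were higher too.

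Among the 16 mitochondrial genes 3 were higher in CS and 4 lower, which lay near the 20.2% higher and 22.6% lower of all tested genes. MARS2 (0.47 ± 0.06) and EARS2 (0.34 ± 0.05) were higher. FARS2, the mitochondrial phenylalanine enzyme, was measured at 10.3, 10.2 and 8.29 CPM in DMSO, 10.4, 12.1 and 12.2 CPM in CS, 8.77, 7.88 and 8.52 CPM in KPT-330, and 9.66, 10.1 and 9.12 CPM in KPT-330+CS. The CS libraries lay above all others, and DMSO overlapped KPT-330 and KPT-330+CS. It was higher in CS by 0.46 ± 0.11 (adjusted p = 0.00326). PARS2 (-0.59 ± 0.15), TARS2 (-0.30 ± 0.10), NARS2 (-0.28 ± 0.07) and RARS2 (-0.26 ± 0.09) were lower. The medians were 0.20 over cytosolic, 0.01 over mitochondrial and -0.04 over all genes, and with library size alone 0.10, -0.09 and -0.13, so that the mitochondrial one turned negative. That scaling left 8 cytosolic genes higher and 1 lower and put 34.8% of all calls higher in place of 47.1%.

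All 13 cytosolic genes called higher remained positive in each alternative. Without single libraries the calls of FARSB (0.16 to 0.21) and LARS (0.16 to 0.20) were lost for CS replicate 1 or 2 or any KPT-330 library, that of SARS for KPT-330 replicate 2 (0.18), that of TARS2 for CS replicate 1 or 2 or any KPT-330 library (-0.32 to -0.22) and that of RARS2 for CS replicate 2 or 3 or any KPT-330 library (-0.27 to -0.19). Without CS replicate 3, calls appeared for EPRS (0.23), FARSA (-0.88), IARS2 (0.26), VARS2 (-0.38) and YARS2 (0.24). VARS lay at 0.00 here and at 0.49 with counts corrected for GC trend, and QARS and VARS2 turned from -0.04 and -0.27 to 0.15 and 0.15.

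Whether CS acted differently with and without KPT-330 was tested as an interaction, the change on adding CS to KPT-330 minus the change in CS alone. Of the 20 cytosolic genes 0 were called above 0 and 1, AARS, below it (-0.33 ± 0.08, adjusted p = 0.0179). Of the 16 mitochondrial genes LARS2 was called below 0 (-0.36 ± 0.10, adjusted p = 0.0334). Of all tested genes 6.62% were below and 8.04% above. AARS rose by 0.45 ± 0.06 with CS alone and differed by 0.12 ± 0.06 when CS was added to KPT-330. For LARS2 these values were 0.04 ± 0.07 and -0.32 ± 0.07. Neither call held throughout: AARS lost it without KPT-330 replicate 1 (-0.31, adjusted p = 0.0555), and LARS2 without DMSO replicate 2 or 3, CS replicate 2 or 3, any KPT-330 library or KPT-330+CS replicate 2 or 3 (-0.38 to -0.31). Without DMSO replicate 1, calls appeared for EPRS (0.30), RARS (0.41), IARS2 (0.38), VARS (-0.79) and SARS2 (-1.25), and without CS replicate 1 for VARS (-0.76).

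The most negative interaction values belonged to SARS2 (-0.91 ± 0.33), FARSA (-0.80 ± 0.41) and VARS (-0.62 ± 0.23), none of which passed the test. These 3 genes also had the widest spread within DMSO, of 2.10, 2.30 and 1.55 between the highest and the lowest library, and GC contents of 61.4%, 60.3% and 61.7%. Over the 36 members GC content and the interaction value had a Spearman correlation of -0.70, with all values from the same 12 libraries. The difference of class medians was 0.07 and turned to -0.09 with counts corrected for GC trend. Under that correction 10 members were called below 0 and 2 above.

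**Figure D4:**
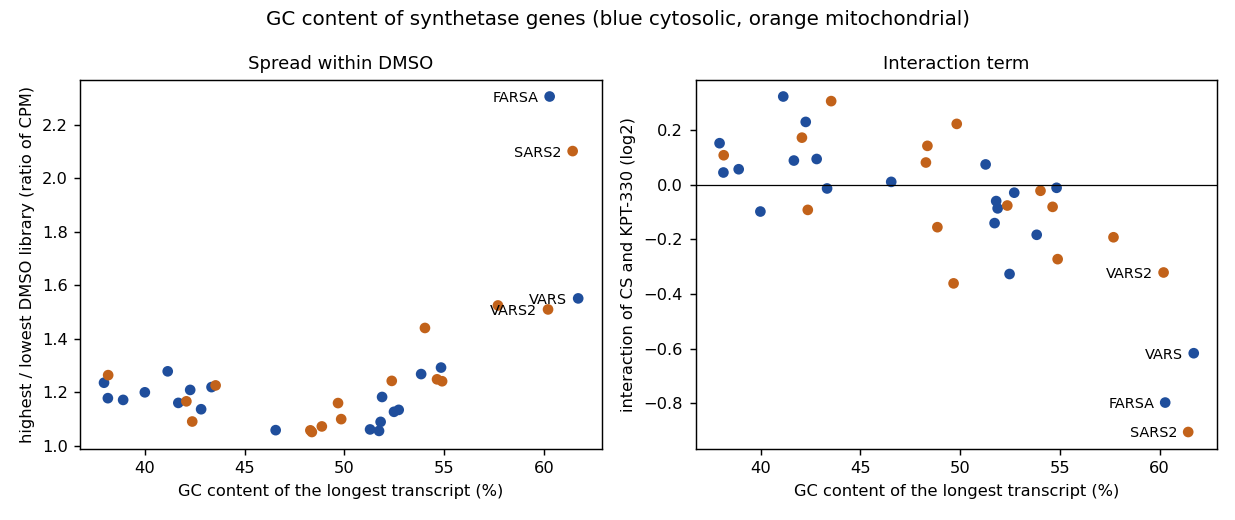
GC content (%) of the longest annotated transcript of each member against the ratio of the highest to the lowest DMSO library (left) and against the log2 interaction value of CS and KPT-330 (right); each point is a gene, with cytosolic genes in blue and mitochondrial genes in orange. FARSA, SARS2 and VARS, all above 60% GC, have ratios of 2.30, 2.10 and 1.55 and the 3 lowest interaction values.

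The coefficient of variation between replicates had a median over members of 8.77% in DMSO, 5.65% in CS, 2.05% in KPT-330 and 5.91% in KPT-330+CS. FARSA had the highest value in DMSO (41.7%), CS (31.3%) and KPT-330+CS (32.8%), and PARS2 in KPT-330 (8.27%). KPT-330 was also the group whose libraries had the narrowest range of GC slopes.

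The members can also be read by role. For this and the lists below, the shares of all tested genes called lower were 23.8% in KPT-330, 5.13% in CS and 26.2% in KPT-330+CS against DMSO, and the shares called higher were 24.7%, 3.76% and 29.3%. Of the 8 genes whose enzymes sit in the multisynthetase complex, 7 fell in KPT-330, 2 in CS and 5 in KPT-330+CS against DMSO, with 0 higher in each, and medians of -0.25, -0.03 and -0.21. Its scaffold gene EEF1E1 (AIMP3) fell in all 3 comparisons, by -0.38 ± 0.07, -0.28 ± 0.07 and -0.74 ± 0.07 as signed log2 values. AIMP1 fell in KPT-330 (-0.23 ± 0.08) and KPT-330+CS (-0.20 ± 0.08), with -0.18 ± 0.08 in CS. AIMP2 fell in KPT-330+CS (-0.50 ± 0.08), where its level was 51.4, 48.9 and 47.2 CPM against 78.7, 67.9 and 62.4 CPM in DMSO, and not by the test in KPT-330 (-0.03 ± 0.08). By catalytic class, 7 of 9 class I and 6 of 10 class II cytosolic genes fell in KPT-330, with medians of -0.42 and -0.30. EPRS holds domains of both classes.

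The 12 cytosolic genes listed as ATF4 targets (AARS, CARS, EPRS, GARS, IARS, LARS, MARS, NARS, SARS, TARS, WARS and YARS) include all 7 cytosolic genes with the motif. In KPT-330 10 of them fell and 0 rose, in CS 3 rose and 1 fell, and in KPT-330+CS 1 rose and 8 fell. Their median was -0.41, 0.10 and -0.21. In CS against KPT-330 11 of 12 were higher, with a median of 0.37. Of all tested genes 20.2% were called higher and 22.6% lower in that comparison. The 7 cytosolic genes with the motif in their window had 6 falls in KPT-330, 2 rises in CS and 7 higher values in CS against KPT-330, with medians of -0.42, 0.11 and 0.52. The 9 cytosolic genes with a window and no match had 5 falls in KPT-330, 5 falls in CS and 4 higher values in CS against KPT-330, with medians of -0.24, -0.20 and 0.18. No test of these groups was made, and the 3 comparisons share libraries.

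Other genes of the integrated stress response were read beside the synthetases. ATF4 was measured at 175, 185 and 181 CPM in DMSO, 226, 225 and 223 CPM in CS, 186, 173 and 179.8 CPM in KPT-330, and 201, 203 and 213 CPM in KPT-330+CS. CS libraries were the highest, and KPT-330 overlapped DMSO. ATF4 rose in CS (0.31 ± 0.05, adjusted p = 0.0015) and in KPT-330+CS (0.19 ± 0.05), and its value in KPT-330 was -0.01 ± 0.05 (adjusted p = 0.907). DDIT3, a transcription factor induced with ATF4, stood at 34.2, 34.1 and 32.9 CPM in DMSO, 47.0, 42.9 and 42.6 CPM in CS, 99.4, 90.4 and 93.5 CPM in KPT-330, and 92.9, 97.7 and 106 CPM in KPT-330+CS. All treated libraries lay above DMSO, and those with KPT-330 lay above CS. Its changes were 1.48 ± 0.06 in KPT-330, 0.39 ± 0.06 in CS and 1.55 ± 0.06 in KPT-330+CS. ASNS, which makes asparagine, was measured at 51.1, 57.7 and 61.9 CPM in DMSO, 107, 102 and 94.4 CPM in CS, 47.9, 46.9 and 45.7 CPM in KPT-330, and 85.4, 85.6 and 93.8 CPM in KPT-330+CS. Both groups with CS lay above DMSO and KPT-330 lay below it. ASNS changed by -0.28 ± 0.07, 0.83 ± 0.07 and 0.63 ± 0.07 in that order of treatments.

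Of the 17 tested genes for stress response regulators, 4 rose and 1 fell in KPT-330, 5 rose and 1 fell in CS, and 14 rose and 0 fell in KPT-330+CS. The rises in KPT-330 were near the 24.7% of all genes, and those in CS and KPT-330+CS are to be read against 3.76% and 29.3%. ATF5, a transcription factor related to ATF4, rose in each (1.64 ± 0.09, 1.06 ± 0.09 and 2.06 ± 0.09). CHAC1, a glutathione-degrading enzyme, rose in CS (2.54 ± 0.39) and KPT-330+CS (2.12 ± 0.40) from levels of 0.329, 0.269 and 0.0727 CPM in DMSO, and its value in KPT-330 (0.91 ± 0.44) did not pass the test. PPP1R15B, a phosphatase subunit for eIF2, fell in KPT-330 (-0.62 ± 0.06), and ATF3 rose in CS (0.86 ± 0.22) from 0.780, 0.636 and 1.29 CPM in DMSO. EIF2AK3 did not pass the test in CS (-0.01 ± 0.08).

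The 16 genes for amino acid synthesis were mixed: 4 rose and 5 fell in KPT-330, 4 rose and 3 fell in CS, and 6 rose and 4 fell in KPT-330+CS. In KPT-330 these shares lay near the 24.7% higher and 23.8% lower of all genes. ASS1 (arginine synthesis) rose in each (1.72 ± 0.22, 1.82 ± 0.22 and 2.91 ± 0.21) from low levels of 0.472, 0.709 and 0.533 CPM in DMSO, with 22 reads in its lowest library. GPT2, an alanine aminotransferase, rose in KPT-330 (1.30 ± 0.12) and KPT-330+CS (1.06 ± 0.12), PHGDH, the entry to serine synthesis, rose in CS (0.69 ± 0.12), and SHMT2 was not called in KPT-330 (0.36 ± 0.20). Of 10 amino acid transporter genes, 4 rose and 2 fell in KPT-330, 2 rose and 0 fell in CS, and 4 rose and 4 fell in KPT-330+CS. The 2 falls in KPT-330 were near the 23.8% of all genes, and the 4 rises stand against 24.7%. SLC6A9, a glycine transporter with 2 to 42 reads per library, stood at 0.0821, 0.0489 and 0.145 CPM in DMSO, 0.483, 0.765 and 0.344 CPM in CS, 0.552, 0.257 and 0.122 CPM in KPT-330, and 0.845, 0.453 and 0.424 CPM in KPT-330+CS. KPT-330 overlapped DMSO, and the other treated groups lay above it. It was called higher in each (1.72 ± 0.67, 2.49 ± 0.62 and 2.62 ± 0.62). SLC7A11, the cystine transporter, fell in KPT-330 (-2.80 ± 0.14) and KPT-330+CS (-1.87 ± 0.13), with -0.27 ± 0.12 in CS.

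Of the 5 tested cytosolic elongation factor genes, 2 fell in KPT-330, EEF1A1 (-0.50 ± 0.06) and EEF1B2 (-0.19 ± 0.06), 0 were called in CS, and EEF1D fell in KPT-330+CS (-0.60 ± 0.19). On the mitochondrial side, 5 of 9 translation factor genes fell in KPT-330 and 0 rose. In CS 2 fell and 1 rose, and in KPT-330+CS 3 fell and 1 rose. GFM1, an elongation factor of mitochondria, changed most, by -0.68 ± 0.08 in KPT-330 and -1.20 ± 0.08 in KPT-330+CS, and TUFM was not called in KPT-330 (-0.14 ± 0.16). Of 5 tested partners of mitochondrial tRNA charging, 1 rose and 2 fell in KPT-330, 1 rose in CS, and 1 rose and 2 fell in KPT-330+CS. TRNT1, which adds the CCA end to tRNAs, fell in KPT-330 (-0.47 ± 0.08) and KPT-330+CS (-0.59 ± 0.08). QRSL1, a subunit of the amidotransferase that makes Gln-tRNA in mitochondria, rose in CS (0.30 ± 0.06).

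Because WARS is induced by interferon-gamma in many cells, 8 genes of that type were read beside it. In KPT-330 4 rose and 2 fell, in CS 0 rose and 1 fell, and in KPT-330+CS 2 rose and 2 fell. In KPT-330+CS these shares were near the 29.3% higher and 26.2% lower of all genes. GBP2, a guanylate-binding protein, rose in KPT-330 (3.29 ± 0.79) from 0.0616, 0.0245 and 0 CPM in DMSO to 0.343, 0.356 and 0.262 CPM. IFIT3 fell in KPT-330 (-1.59 ± 0.18), CS (-0.91 ± 0.18) and KPT-330+CS (-0.57 ± 0.17), PSMB9, an immunoproteasome subunit, rose in KPT-330+CS (0.76 ± 0.14), and TAP1 was not called in KPT-330 (0.21 ± 0.11). WARS fell in all 3 treatments, as given above. The 5 tested T cell markers all rose in KPT-330, at the low levels given above, and their part in the changes of the synthetase genes was not tested.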

How the data were processed

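JEKO-1 cells had polyadenylated RNA sequenced from TruSeq RNA Library Prep V2 libraries, a kit that does not mark strand, with RNA from a kit for fixed tissue, per the labels' protocols. The authors aligned reads to hg38 with STAR and deposited raw gene counts on Ensembl 78, per the series' design text. No source used here gives the STAR version, the counter or its strand setting. The deposited length column gave RPKM.

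All 12 libraries (35325563 to 59490178 counts) were fitted in edgeR 4.0.16 (R 4.3.3) by group alone, with filterByExpr, TMM and the quasi-likelihood F-test, two-sided, with 8 residual degrees of freedom and a common biological coefficient of variation of 11.1%. Adjusted p-values are Benjamini-Hochberg over 19460 genes per comparison, and a call is 0.05 or less. The SE was taken as the absolute fold change on the log2 scale over the root of F. The scripts were tested on simulated data. Members of the 2 classes are not replicates, so lists are described by counts and medians. Of the 64253 rows, 28113 had no read. The names VARS and VARS2 had 9 further rows on alternate haplotypes, with 0 reads. No library pair differed by sampling noise alone. Same-numbered libraries deviated together (correlation over 0.1) in 2 of 18 pairs, so the numbers were not taken to pair samples. Libraries of different number also shared deviations, as DMSO replicate 1 with CS replicate 3 (0.404) and DMSO replicate 3 with CS replicate 1 (0.346). Their GC slopes were 0.0874 and 0.0592, and -0.314 and -0.229. DMSO and CS replicate 3 deviated oppositely (-0.384). The source of this structure was not tested.

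GC content is that of the longest GENCODE 44 transcript. GC correction took out each library's GC trend relative to all libraries or, within groups, to its own group. Both narrow the spread between replicates without using residual degrees of freedom, so added calls under them can come from the setting itself. Alternatives were other filters (none, or a CPM of at least 1 in 3 libraries), DESeq2 1.42.0 and its size factors, voom in limma 3.58.1, library size alone, a replicate block, the compared groups alone, GC correction, and leaving out each library. One more, without the libraries of lowest GC slope in DMSO, CS and KPT-330+CS together, was chosen after seeing the data. The members and lists were chosen with earlier results of these data known. Per comparison, library values are given for up to 5 cytosolic and 4 mitochondrial called members with the largest changes and for AARS, EPRS, GARS, KARS, WARS, FARSA, FARSB, HARS and HARS2. Of every other list up to 3 called genes and 1 not called were named, with ATF4, DDIT3, ASNS, CHAC1, AIMP1, AIMP2 and EEF1E1 always. One marker gene is not reported here, nor is the summed level of its list.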

Additional observations from a re-analysis of the deposited data

Results flagged for a closer look

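In the interaction, 2 members had an effect of CS that differed with and without KPT-330 by edgeR's test of the difference itself. For AARS the log2 value was -0.33 (CS against DMSO 0.45, KPT-330+CS against KPT-330 0.12), and for LARS2 it was -0.36 (0.04 and -0.32). No other member passed that test. Both calls were below 0, as were those of 6.62% of all tested genes, while 8.04% were called above 0. Neither call of these members held in all alternatives, so the 2 calls do not set the members apart from all genes.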

How the results depend on the processing

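Each comparison was refitted under 18 alternatives (23 for the interaction). Of the called members, 15 of 20 in KPT-330 against DMSO, 2 of 9 in CS against DMSO, 13 of 24 in KPT-330+CS against DMSO, 7 of 12 in KPT-330+CS against KPT-330, 15 of 18 in KPT-330+CS against CS, 13 of 20 in CS against KPT-330 and 0 of 2 in the interaction kept their call in all of them. The cause of the changes below was not tested. In KPT-330 against DMSO, 2 members were called higher; this was 6 with library size alone, 1 with DESeq2, 1 with the replicate block and 8 with GC correction within groups, and the class difference was -0.18 with GC correction over all libraries and -0.19 with the replicate block added. In CS against DMSO, 3 members were higher and 6 lower; 2 were lower with DESeq2 size factors, 6 higher and 3 lower with library size alone, 1 lower with the replicate block, 0 lower with the compared groups alone, 11 higher and 10 lower with GC correction over all libraries, 11 and 12 within groups, and 10 and 10 with the replicate block and GC correction. The calls over all genes, 1729, became 1036 with the replicate block, 249 with the compared groups alone, 4556 and 4661 with the GC corrections and 4081 with the replicate block added to the first. In KPT-330+CS against DMSO, 3 higher and 21 lower became 7 and 12 with library size alone, and 8 were higher with GC correction within groups. In KPT-330+CS against KPT-330, 3 higher became 7 with the stricter filter, 8 with library size alone, 9 with the compared groups alone and 5 without the libraries of lowest GC slope. GC correction gave 9 higher and 16 lower there, 13 and 14 within groups, and 9 and 15 with the replicate block in place of 3 and 9, and a class difference of 0.010 over all libraries and 0.0097 with the block in place of 0.11. In KPT-330+CS against CS, 2 higher became 4 with library size alone and 4 with GC correction within groups, and 16 lower became 26 with GC correction over all libraries and 26 with the replicate block added. In CS against KPT-330, 4 lower became 7 with the compared groups alone and 8 with GC correction within groups. In the interaction, 2 lower became 4 with DESeq2 and 1 with the replicate block. GC correction over all libraries gave 2 higher and 10 lower, a class difference of -0.092 and 5142 calls over all genes in place of 2853. Within groups it gave 7 higher, 12 lower and 7010 calls, and with the replicate block 1 higher, 9 lower, a class difference of -0.092 and 4731. Without the libraries of lowest GC slope the class difference was -0.0082. The compared groups alone could not be fitted for the interaction.

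Leaving out 1 library in turn gave 1 to 5 members higher in KPT-330 against DMSO; in CS against DMSO 3 to 5 higher, 0 to 7 lower, a class difference of -0.073 to 0.086 and 760 to 2580 genes; in KPT-330+CS against DMSO 1 to 4 higher and a class difference of -0.23 to -0.14; in KPT-330+CS against KPT-330 a class difference of 0.068 to 0.19; in CS against KPT-330 2 to 5 lower; and in the interaction 0 to 3 higher, 0 to 4 lower, a class difference of -0.0081 to 0.15 and 1713 to 4711 genes. With library size alone, CARS (0.013) and MARS2 (0.16) reversed in KPT-330+CS against DMSO. With GC correction over all libraries, and with the replicate block added where a second value is given, these reversed: in KPT-330 against DMSO QARS (-0.14, -0.14), AARS2 (-0.17, -0.17) and VARS2 (-0.16, -0.16); in KPT-330+CS against DMSO VARS2 (-0.15, -0.15); in KPT-330+CS against KPT-330 RARS (-0.094), AARS2 (0.16, 0.16) and NARS2 (-0.10, -0.10); in CS against KPT-330 QARS (0.15, 0.15), VARS (0.49, 0.49) and VARS2 (0.15, 0.15); in the interaction DARS (-0.12, -0.12) and GARS (-0.11, -0.11). The labels do not say that a replicate number marks a shared culture or day.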
